A study of Mus musculus with 9 samples.

Results

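Transcripts of the cell cycle and DNA replication were followed in neutrophils sorted from mouse bone marrow, to look for a trace of the dividing precursors that such a sort can hold. The group was a fixed list of 60 genes, of which every row carrying a listed symbol was taken with no filter on expression, and 50 of the 60 were among the 7197 genes of the normalized count table. By role, 13 of 19 DNA replication genes, 4 of 6 G1 cyclins and cyclin-dependent kinases, 26 of 28 mitotic genes and 7 of 7 chromatin and tubulin genes were listed. Mcm2, Dut, Gins2, Cdc6, Uhrf1, Hells, Cdk4, Ccne1, Ube2s and Aurkb had no row, so their levels were not analysed here. The series compared 5 libraries from Rragc+/+ mice with 4 libraries from RragcS74N/+ mice, all 2 months old. RragcS74N/+ mice carry 1 edited allele of Rragc in every cell of the body, made with CRISPR on a C57BL/6 background, which encodes an active form of the mTORC1 regulator RagC. Homozygous mice of this allele are not viable, so the model is heterozygous, and the change is not restricted to neutrophils. Cells had been sorted as CD45+ CD11b+ Ly6G+, and the sex of the animals was not given.

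Neutrophils arise in bone marrow from precursors that divide several times and then leave the cell cycle for good before they mature. A dividing cell first makes cyclins of G1, then the enzymes that make nucleotides and copy DNA in S phase, and last the kinases, motors and condensins of mitosis. Replication genes are mostly switched on by E2F factors. Mitotic genes are held off in resting cells by the DREAM and MuvB complexes at a short element called the CHR, and are activated through it together with NF-Y, which binds CCAAT. Ly6G, on which the cells were sorted, appears late in this course.

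Promoters of 6 members are shown as examples that hold these elements, which differed in frequency between the mitotic and the replication genes. Each run is the RefSeq promoter in GRCm38.p6, from 250 bases before to 50 bases after the start of the gene, 5′ to 3′ on the strand of the gene. In Plk1, Cdc20 and Mki67 the capitals mark CHR letters (TTTGAA or TTCGAA) and CCAAT on either strand. In Mcm3, Mcm5 and Mcm6 they mark E2F letters (TTTCCCGC, TTTCGCGC, TTTGCCGC or TTTGGCGC) and CCAAT on either strand, and neighbouring matches can overlap. Plk1, a mitotic kinase, lies on the plus strand at chr7:122159185-122159484. Cdc20, an activator of the anaphase-promoting complex, lies on the minus strand at chr4:118437294-118437593. Mki67, the Ki-67 proliferation marker, lies on the minus strand at chr7:135716330-135716629. Mcm3, Mcm5 and Mcm6 encode subunits of the replicative helicase and lie at chr1:20820263-20820562 (minus), chr8:75109259-75109558 (plus) and chr1:128359656-128359955 (minus).
Plk1: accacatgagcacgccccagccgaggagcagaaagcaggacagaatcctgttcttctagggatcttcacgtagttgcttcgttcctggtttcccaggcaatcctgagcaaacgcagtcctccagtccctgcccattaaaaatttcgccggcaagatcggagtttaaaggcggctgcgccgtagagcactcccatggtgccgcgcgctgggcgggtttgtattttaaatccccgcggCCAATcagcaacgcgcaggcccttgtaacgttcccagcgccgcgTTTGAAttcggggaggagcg
Cdc20: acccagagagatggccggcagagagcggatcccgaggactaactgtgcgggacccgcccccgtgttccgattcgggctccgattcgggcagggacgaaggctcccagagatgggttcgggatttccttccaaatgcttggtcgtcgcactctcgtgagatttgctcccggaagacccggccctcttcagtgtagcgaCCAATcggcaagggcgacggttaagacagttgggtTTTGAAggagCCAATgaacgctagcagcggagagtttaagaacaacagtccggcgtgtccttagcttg
Mki67: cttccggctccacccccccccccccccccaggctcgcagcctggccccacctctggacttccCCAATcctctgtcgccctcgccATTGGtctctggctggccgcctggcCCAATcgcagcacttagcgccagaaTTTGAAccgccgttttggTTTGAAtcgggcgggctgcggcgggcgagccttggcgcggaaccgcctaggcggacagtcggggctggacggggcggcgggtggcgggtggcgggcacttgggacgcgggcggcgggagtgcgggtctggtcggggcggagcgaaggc
Mcm3: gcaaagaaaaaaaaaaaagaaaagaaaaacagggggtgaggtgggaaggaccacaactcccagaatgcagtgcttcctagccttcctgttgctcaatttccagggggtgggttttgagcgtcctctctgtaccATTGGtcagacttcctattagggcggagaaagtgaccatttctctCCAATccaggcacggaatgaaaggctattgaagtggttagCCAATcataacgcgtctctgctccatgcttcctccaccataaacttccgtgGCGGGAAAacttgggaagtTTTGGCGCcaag
Mcm5: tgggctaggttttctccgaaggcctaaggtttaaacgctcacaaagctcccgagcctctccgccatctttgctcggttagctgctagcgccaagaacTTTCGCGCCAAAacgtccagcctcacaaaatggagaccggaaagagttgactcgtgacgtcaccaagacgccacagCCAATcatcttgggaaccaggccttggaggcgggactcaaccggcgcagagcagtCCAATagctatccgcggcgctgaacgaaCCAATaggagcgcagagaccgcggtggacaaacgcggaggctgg
Mcm6: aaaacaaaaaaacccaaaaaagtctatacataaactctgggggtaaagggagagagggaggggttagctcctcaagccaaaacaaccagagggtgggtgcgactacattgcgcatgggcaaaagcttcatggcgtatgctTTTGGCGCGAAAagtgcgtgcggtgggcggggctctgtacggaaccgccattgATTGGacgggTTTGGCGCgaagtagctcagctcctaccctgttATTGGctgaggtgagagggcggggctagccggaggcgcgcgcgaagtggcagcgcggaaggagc

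Plk1 held 1 CHR and 1 CCAAT match, Cdc20 held 1 and 2, and Mki67 held 2 and 3. Mcm3 held 2 E2F and 3 CCAAT matches, Mcm5 held 2 and 3, and Mcm6 held 3 and 2. Promoters were found for 50 of the 60 members, with 55 promoters in all. These are not the same 50 as the members with expression values, since Mcm2, Dut, Cdc6, Uhrf1, Hells, Cdk4, Ccne1 and Ube2s are counted here by sequence alone. CHR letters were in 19 of 24 mitotic promoters (79.2%), in 2 of 20 replication promoters (10%) and in 19.2% of 32851 promoters of the same length. E2F letters were in 9 of 20 replication promoters (45%), in 2 of 24 mitotic promoters (8.33%), those of Cdk1 and Ncapd2, and in 2.26% of all promoters. CCAAT was in 19 of 24 mitotic, 11 of 20 replication and 37.4% of all promoters. CHR letters and CCAAT stood together in 16 of 24 mitotic promoters, against 7.52% of all promoters. The letters of E2F were thus the more common in S phase members and those of the CHR in mitotic members. A match of letters is not a bound site, and a window without a match says nothing of the factor.

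**Figure D1:**
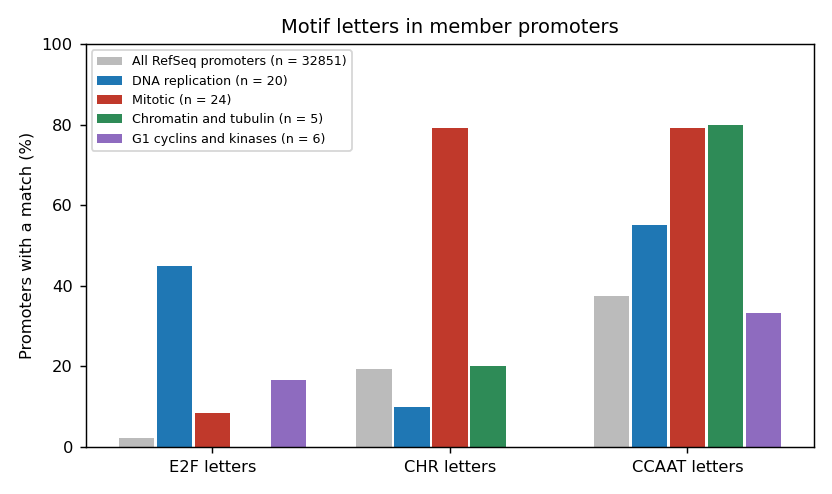
Share of promoters (%, from 0 to 100) that hold E2F, CHR or CCAAT letters on either strand, for all RefSeq promoters and for the members by role. E2F letters stand highest in the replication genes (45%), and CHR letters in the mitotic genes (79.2%).

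Reads were taken from the 3′ ends of transcripts, and 1214295 to 1973957 reads per library fell on the listed genes. In these libraries 1 read was worth 0.659 to 1.17 normalized counts, so a value of 10 rests on about 10 reads. Rragc+/+ replicate 2 stood apart from the rest, with a Spearman correlation over all listed genes that averaged 0.901 against the other 8, where each other library averaged 0.935 to 0.954. The replication and mitotic differences are therefore also given without it. Single changes were followed through the removal of each library for 20 genes only. Among those, changes that the removal of Rragc+/+ replicate 2 moved by more than 1.5 times are also given without it. Changes of other genes are given with all libraries only, and some may depend on it. Rragc itself stood at 71.0 ± 10.3 normalized counts in Rragc+/+ (SD, n = 5) and 65.8 ± 9.52 in RragcS74N/+ (SD, n = 4), and since the edit alters the coding sequence this level does not check the labels. All 11 of the mature neutrophil markers were listed, led by S100a9 and S100a8. Of the 15 markers of neutrophil precursors, the early granule genes Elane, Mpo, Prtn3 and Ctsg had no row. The later ones Camp, Ngp and Ltf had one. Azu1, also of that list, had no identifier in the mouse annotation used, so its missing row says nothing of its level. The study describes neutrophils profiled from several young mice of each genotype, but the labels do not tie each library to a mouse. The p-values rest on the spread between these libraries.

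Cell cycle transcripts were present in every library, and their level differed more between libraries of 1 genotype than between the genotypes. In the DNA replication group the 13 listed genes summed to 128, 137, 120, 136 and 256 normalized counts in Rragc+/+ replicates 1 to 5, and to 119, 129, 173 and 258 in RragcS74N/+ replicates 1 to 4. In the mitotic group the 26 listed genes summed to 1588, 1212, 1285, 1432 and 2635 in Rragc+/+ and to 1479, 1848, 2157 and 2526 in RragcS74N/+. Rragc+/+ replicate 5 and RragcS74N/+ replicate 4 were therefore the highest pair of libraries for both phases, 1 in each genotype, and the genotypes overlapped. Means were 155 ± 56.6 (SD, n = 5) and 170 ± 63.5 (SD, n = 4) for replication, and the mean of the log2 sums differed by 0.12 for RragcS74N/+ minus Rragc+/+. They were 1630 ± 580 and 2003 ± 445 for mitosis, and the mean of the log2 sums differed by 0.33. Both differences were smaller than the spread among libraries of 1 genotype. The replication difference was -0.10 without RragcS74N/+ replicate 4 and 0.32 without Rragc+/+ replicate 5, so its direction turned with the removal of 1 library. Without Rragc+/+ replicate 2 the differences were 0.09 for replication and 0.24 for mitosis, and without Rragc+/+ replicate 5 the mitotic difference was 0.52. In such bulk samples, fewer dividing cells and less of these transcripts per cell cannot be told apart.

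The 7 chromatin and tubulin genes followed the same libraries. They summed to 4198, 3324, 3418, 3795 and 5622 in Rragc+/+ and to 2993, 4440, 4141 and 5982 in RragcS74N/+, again highest in Rragc+/+ replicate 5 and RragcS74N/+ replicate 4. The 4 listed G1 genes went another way, with 1610, 1526, 1392, 1637 and 1078 in Rragc+/+ and 1242, 1324, 1455 and 1261 in RragcS74N/+. Rragc+/+ replicate 5, highest for mitosis, was thus the lowest of the 9 libraries for the G1 sum. Ccnd3, cyclin D3, made up 90.6% of that sum.

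**Figure D2:**
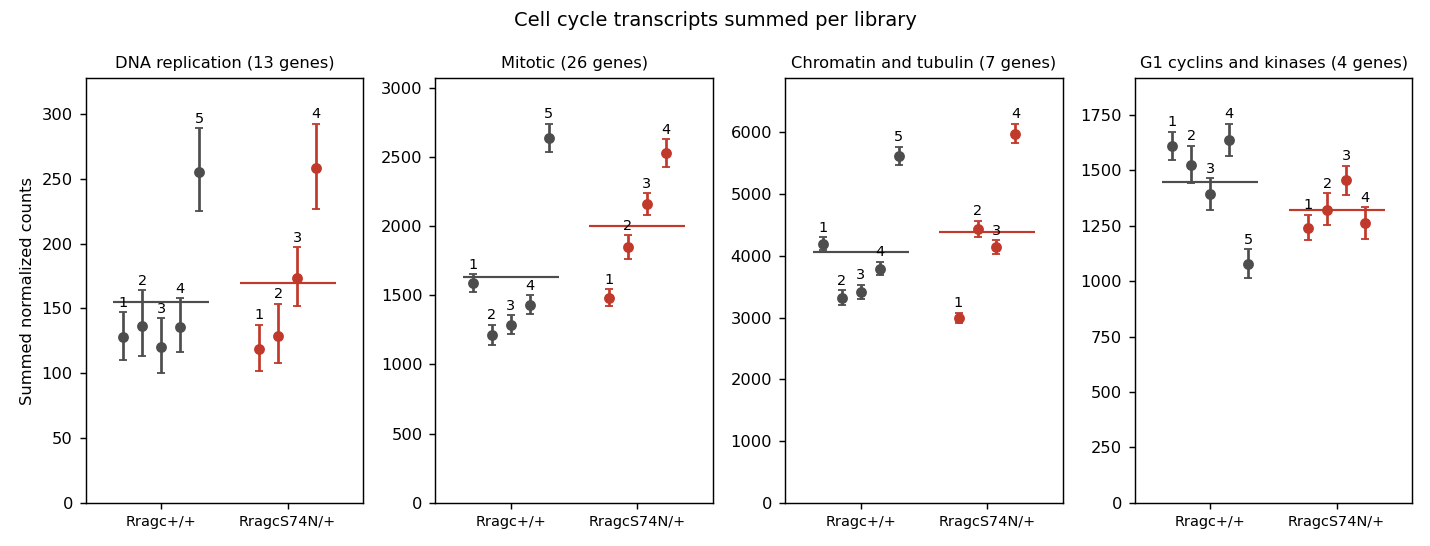
Summed normalized counts of the listed members of each role (vertical axes, from 0) in each library, numbered by replicate, with 95% Poisson intervals of the reads and a line at each genotype's mean. Rragc+/+ replicate 5 and RragcS74N/+ replicate 4 are the highest libraries in the replication, mitotic and chromatin panels, and Rragc+/+ replicate 5 is the lowest in the G1 panel.

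Set against each other, mitotic and S phase transcripts kept a fairly narrow ratio. Mitotic counts were 12.4, 8.86, 10.7, 10.5 and 10.3 times the replication counts in Rragc+/+ and 12.5, 14.3, 12.5 and 9.79 times in RragcS74N/+. The lowest ratio was in Rragc+/+ replicate 2 and the highest in RragcS74N/+ replicate 2. Mean ratios were 10.6 ± 1.27 (SD, n = 5) and 12.3 ± 1.86 (SD, n = 4), with a difference of 0.21 between the means of the log2 ratios, and the genotypes overlapped. Unlike those of the replication and mitotic sums, this difference slightly exceeded the SD within a genotype (0.2084 against 0.1988). In RragcS74N/+ replicate 2 the mitotic sum was the fourth highest of the 9 while the replication sum was the sixth, and in Rragc+/+ replicate 2 the mitotic sum was the lowest while the replication sum was the fourth highest. With each gene weighted alike, as the mean of log2(value + 1) over a role, the difference in mitotic over replication level was 0.10, and without Rragc+/+ replicate 2 the log2 difference of the ratio was 0.15. No p was computed for sums, because members were chosen with results of these libraries known.

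**Figure D3:**
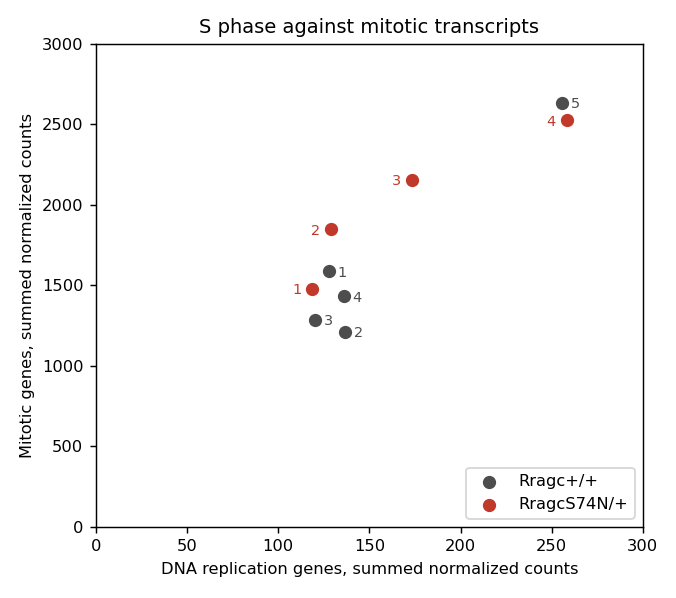
Summed normalized counts of the 13 replication genes (horizontal) against the 26 mitotic genes (vertical) in each library, numbered by replicate and coloured by genotype. Rragc+/+ replicate 5 and RragcS74N/+ replicate 4 lie together at the upper right, apart from the other 7 libraries.

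Several marker lists were also high in the libraries of high mitotic sum, though none followed it in every library. Of 14 erythroid markers 10 were listed, and their sum ran from 1122 to 5714 in Rragc+/+, highest in replicate 5, and from 412 to 2239 in RragcS74N/+, highest in replicate 4. Car2, a carbonic anhydrase of early erythroid cells, stood at 78.2 in Rragc+/+ replicate 5 and 54.3 in RragcS74N/+ replicate 4, against 2.34 to 31.6 in the other libraries. Tfrc, the transferrin receptor, which dividing erythroid precursors carry in plenty, stood at 54.1 and 41.8 in those libraries and at 10.5 to 30.9 in the others. Across genotypes the erythroid sum did not follow the mitotic sum. RragcS74N/+ replicate 2 had the lowest erythroid sum and the fourth highest mitotic sum, and the erythroid sums of Rragc+/+ replicates 2, 3 and 4 (3018, 2395 and 3908) exceeded that of RragcS74N/+ replicate 4. The globin gene Hba-a2 had a log2 change of -1.99 (95% interval -3.10 to -0.87) and Hba-a1 of -1.96 (-3.18 to -0.73). Each had an adjusted p of 0.713 in limma, and these changes were opposite in sign to the mitotic difference. Car2 (0.58, -1.05 to 2.21) and Tfrc (0.20, -0.72 to 1.13) had positive changes with intervals that cross 0. The other tested erythroid markers had negative changes. Klf1, Gata1 and Car1 had no row. The 9 listed markers of neutrophil precursors, of 15, had sums of 32031 in Rragc+/+ replicate 5 and 33691 in RragcS74N/+ replicate 4 against 19548 to 29579 in the others. Within that list Camp, an antimicrobial granule peptide, gave most of this order (12861 and 13514 against 4348 to 9052). Chil3, also of the list, was likewise highest in those libraries, at 3028 and 2780 against 1340 to 2142. Without Camp the sums were 19170 and 20177, against 22004 in Rragc+/+ replicate 2, the highest. Cebpe, a factor of granulocyte differentiation, was highest in Rragc+/+ replicate 2 at 229, and Cd177 was lowest in Rragc+/+ replicate 5 at 114. The 11 mature neutrophil markers too were highest within each genotype in the same libraries, with a sum of 189245 in Rragc+/+ replicate 5 and 129173 to 170895 in the other Rragc+/+ libraries, and of 209857 in RragcS74N/+ replicate 4 and 123416 to 197008 in the other RragcS74N/+ libraries. The 5 listed of 8 eosinophil and basophil markers summed to 426 in Rragc+/+ replicate 5 and 583 in RragcS74N/+ replicate 4, but also to 461 in RragcS74N/+ replicate 2, and to 113 to 206 in the others. Of 6 stem and progenitor markers, Kit and Myb were listed, with a sum of 42.1 in Rragc+/+ replicate 5 and 25.2 to 37.7 elsewhere. The part of these cells in the sums was not tested. B lineage cells, a large dividing population of marrow, were represented by 1 of 13 markers (Ighm, 87.6 to 140 in Rragc+/+ and 83.5 to 123 in RragcS74N/+), T and NK cells by 1 of 8 (Cd3d, 14.5 to 28.9) and monocytes by 1 of 8 (Csf1r, highest at 339 in Rragc+/+ replicate 2 and 71.1 to 189 elsewhere).

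Gene by gene, the same 2 libraries led. Of the 50 listed members, 24 had their highest value in Rragc+/+ replicate 5, where 9.48% of all listed genes had theirs, and 14 had it in RragcS74N/+ replicate 4, where 15.0% of all genes did. By role, 7 of 13 replication genes and 14 of 26 mitotic genes peaked in Rragc+/+ replicate 5. None of the 50 had its lowest value in RragcS74N/+ replicate 4, against 13.7% of all genes. In Rragc+/+ replicate 5, 2 had it, against 11.9%. Lowest values were spread over Rragc+/+ replicate 2 (13 members, against 23.8% of all genes), Rragc+/+ replicate 3 (10 members, against 6.61%) and RragcS74N/+ replicate 1 (9 members, against 12.6%). Over the 50 listed members the variance across the 9 libraries was a median of 4.62 times that from read counting alone. The median was 3.92 times over all tested genes. It was 2.64 times over those of mean 10 to 100, a range to which the members' median was not limited. The 50 members include 7 that were too low to be tested. Ncapd2, a condensin subunit (0.73 times), Cdt1, a licensing factor (0.85), and Kif23, a motor of the cleavage furrow (1.02), lay at counting error. Kif23 was singled out after its values were seen, since it stayed between 85.3 and 117 in all libraries while Cenpf, a kinetochore gene of like mean, ran from 51.4 to 154.

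**Figure D4:**
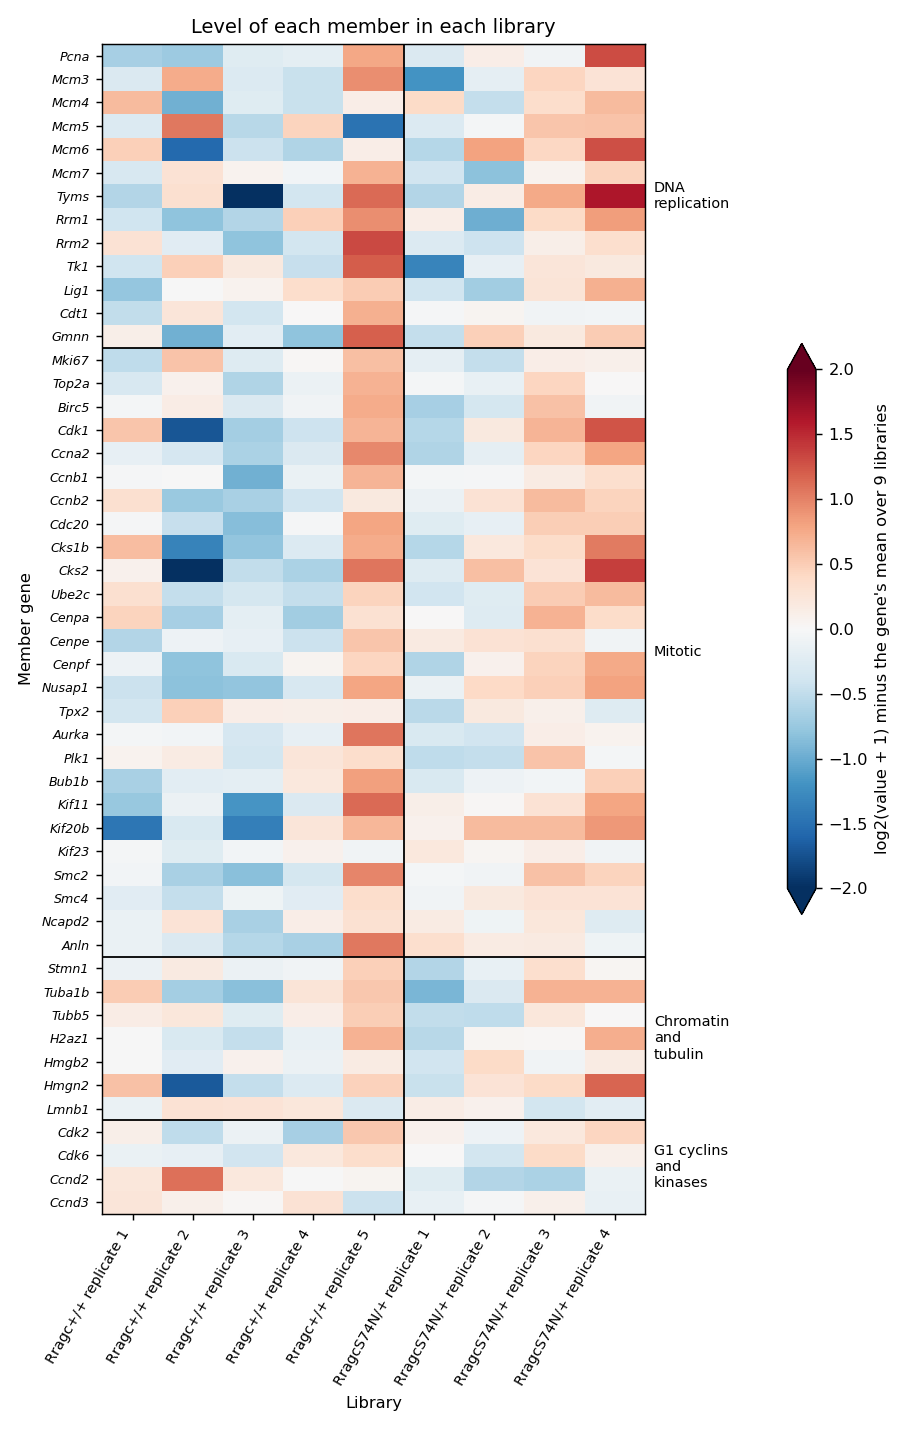
Deviation of each listed member from its mean over the 9 libraries, in log2(value + 1), with red above and blue below that mean. Columns are libraries and rows are genes grouped by role. The column of Rragc+/+ replicate 5 is red for most replication and mitotic genes, as is that of RragcS74N/+ replicate 4, while Kif23 stays pale throughout.

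Replication genes were scarce. Their means over the 9 libraries ran from 6.05 to 31.0 normalized counts, and 7 of 13 (Mcm3, Mcm5, Mcm6, Tyms, Tk1, Cdt1 and Gmnn) lay under the mean of 10 that was needed for a test. Pcna, the sliding clamp of DNA polymerase, was the highest, with 17.1, 16.4, 23.4, 24.1 and 48.1 in Rragc+/+ and 22.5, 30.5, 26.4 and 70.0 in RragcS74N/+. The library with the most Pcna in each genotype was again replicate 5 and replicate 4. Its log2 change was 0.48 (95% interval -0.29 to 1.25), and 0.13 without RragcS74N/+ replicate 4 or 0.73 without Rragc+/+ replicate 5. Lig1, the ligase that joins Okazaki fragments, stood at 10.5, 18.7, 19.7, 24.1 and 27.1 in Rragc+/+ and 13.9, 11.2, 22.6 and 31.4 in RragcS74N/+, with a log2 change of -0.06 (-0.78 to 0.66). Mcm7, of the helicase, stood at 11.9, 18.7, 15.9, 14.5 and 25.1 against 11.3, 8.13, 15.8 and 20.9, with a log2 change of -0.31 (-0.98 to 0.36). That change was -0.10 without RragcS74N/+ replicate 2, -0.17 without Rragc+/+ replicate 5 and -0.52 without RragcS74N/+ replicate 4. In all 3 genes the genotypes overlapped, and each interval spans both a decrease and an increase. Rrm2, the cell cycle subunit of ribonucleotide reductase, was at 36.1 in Rragc+/+ replicate 5 and 7.50 to 17.8 elsewhere. Helicase subunits did not share 1 order at these depths. Mcm5 rested on 2 reads in Rragc+/+ replicate 5 and 15 in Rragc+/+ replicate 2, and Mcm6 on 1 read in Rragc+/+ replicate 2 and 14 in RragcS74N/+ replicate 4. Tyms, thymidylate synthase, had 0 reads in Rragc+/+ replicate 3, where a count of 0 allows up to 3 reads, and 15 in RragcS74N/+ replicate 4.

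Mitotic genes were better covered, with means from 11.5 to 359 normalized counts, and 21 of 26 had a positive log2 change in RragcS74N/+, although none passed the test. Cks2, a small subunit of the mitotic cyclin-dependent kinase, was the most abundant and the most variable, with 315, 72.4, 209, 190 and 619 in Rragc+/+ and 247, 448, 356 and 770 in RragcS74N/+. Its highest library exceeded its lowest 10.6 times. Its log2 change was 0.90 (-0.13 to 1.92), or 0.49 without Rragc+/+ replicate 2. Cdk1, the kinase that drives entry into mitosis, had a like order of libraries, with 43.5, 8.18, 17.8, 21.7 and 47.1 in Rragc+/+ and 19.2, 33.5, 47.4 and 71.1 in RragcS74N/+. Its log2 change of 0.70 (-0.29 to 1.70) was 0.35 without Rragc+/+ replicate 2 and 0.42 without RragcS74N/+ replicate 4. In Rragc+/+ replicate 2 both genes had their lowest value of the series. Smc4, a condensin subunit, varied far less, at 301, 254, 331, 301 and 448 in Rragc+/+ and 334, 402, 427 and 423 in RragcS74N/+. Its log2 change was 0.30 (-0.09 to 0.69), and the groups overlapped, with the highest value in Rragc+/+ replicate 5.

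No genotype difference was detectable in the classical proliferation markers. Mki67 stood at 40.8, 87.6, 48.7, 59.5 and 89.2 in Rragc+/+ and 51.7, 41.7, 64.0 and 62.7 in RragcS74N/+, with a log2 change of -0.19 (-0.74 to 0.35), which was -0.07 without Rragc+/+ replicate 2 and ran from -0.34 to -0.06 as each library was left out. Top2a, the topoisomerase of chromosome condensation, stood at 128, 169, 105, 148 and 260 against 156, 144, 215 and 161, with a log2 change of 0.11 (-0.40 to 0.63) that turned to -0.02 without Rragc+/+ replicate 3. Ccnb1, cyclin B1, stood at 24.4, 24.5, 12.2, 22.5 and 40.1 against 23.9, 24.4, 27.9 and 31.4, with a log2 change of 0.20 (-0.42 to 0.81) that turned to -0.02 without the same library. Each of these genes was highest in Rragc+/+ replicate 5, and each interval spans both a decrease and an increase. Tpx2, a spindle assembly factor, had the smallest p of the mitotic genes with a negative change, with 20.4, 37.4, 29.1, 28.9 and 29.1 against 17.9, 30.5, 28.6 and 21.9 and a log2 change of -0.22 (-0.73 to 0.28), which was -0.13 without Rragc+/+ replicate 2 and -0.09 without RragcS74N/+ replicate 1.

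Members did not lie to 1 side in Rragc+/+ replicate 2. Mki67 had its second highest value there and Tpx2 its highest, while Cks2 (72.4), Cdk1 (8.18), Cks1b (16.4) and the chromatin gene Hmgn2 (109) had their lowest. GC content of the last 500 bases of the transcript was known for 49 of 50 members. Among tested members under the GC median of 46.4%, the median deviation in that library was -0.47 on the log2 scale, against -0.05 for those at or above it. Over all tested genes the corresponding medians were -0.15 and 0.22, and for the members of Rragc+/+ replicate 5 they were 0.68 and 0.50. Single genes did not all follow these medians, since Mki67 (45.8%) was high there and Cdk1 (49.5%) and Cks1b (48.4%) were at their lowest. The part of GC content in the members' values was not tested.

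Across the tested members, no genotype change passed the threshold. Of the 43 members whose mean reached 10 normalized counts, 0 had an adjusted p under 0.05 with limma and Benjamini-Hochberg adjustment over 6673 genes, where the share called was 0%. The smallest adjusted p of any member was 0.713. At an unadjusted p under 0.05 there were 2 members higher in RragcS74N/+, where 2.01% of all tested genes were, and 1 lower, where 3.81% were. In the same count over both directions, edgeR and DESeq2 on the recovered reads each gave 1 member and 0 adjusted calls, against 6.89% and 6.7% of all tested genes at that p. Without Rragc+/+ replicate 2, limma gave 2 members at an unadjusted p under 0.05 and 201 of all genes (3.01%), against 3 and 388 with it. No member was higher in RragcS74N/+ with groups that did not overlap, against 0.674% of all genes, and 1 was lower, against 1.02%. With 0 to 3 of 43 members in each count, these shares are no result about the members.

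Positive changes outnumbered negative ones, with no gene called. Of 43 changes 30 were positive and 13 negative, with a median log2 change of 0.17, against a median of 0.02 and 53.4% positive over all tested genes. By role the median was 0.26 over 26 mitotic genes, 0.06 over 6 replication genes (3 positive), 0.04 over 7 chromatin and tubulin genes (4 positive) and -0.02 over 4 G1 genes (2 positive). The genes share their libraries and are not independent, so this is not a count of independent results. Without Rragc+/+ replicate 5 the count at an unadjusted p under 0.05 became 10 members, of which 9 were higher (5.63% of all genes were) and 1 lower (8.06% of all genes were), with the smallest adjusted p of all genes at 0.326. The 9 were Pcna, Ccnb2, Cks2, Cenpe, Nusap1, Kif11, Kif20b, Smc2 and Smc4. This was 1 of the 9 fits that each left out a library, and since each of the 9 genes was above its Rragc+/+ mean in that library, its removal by itself raises their changes.

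**Figure D5:**
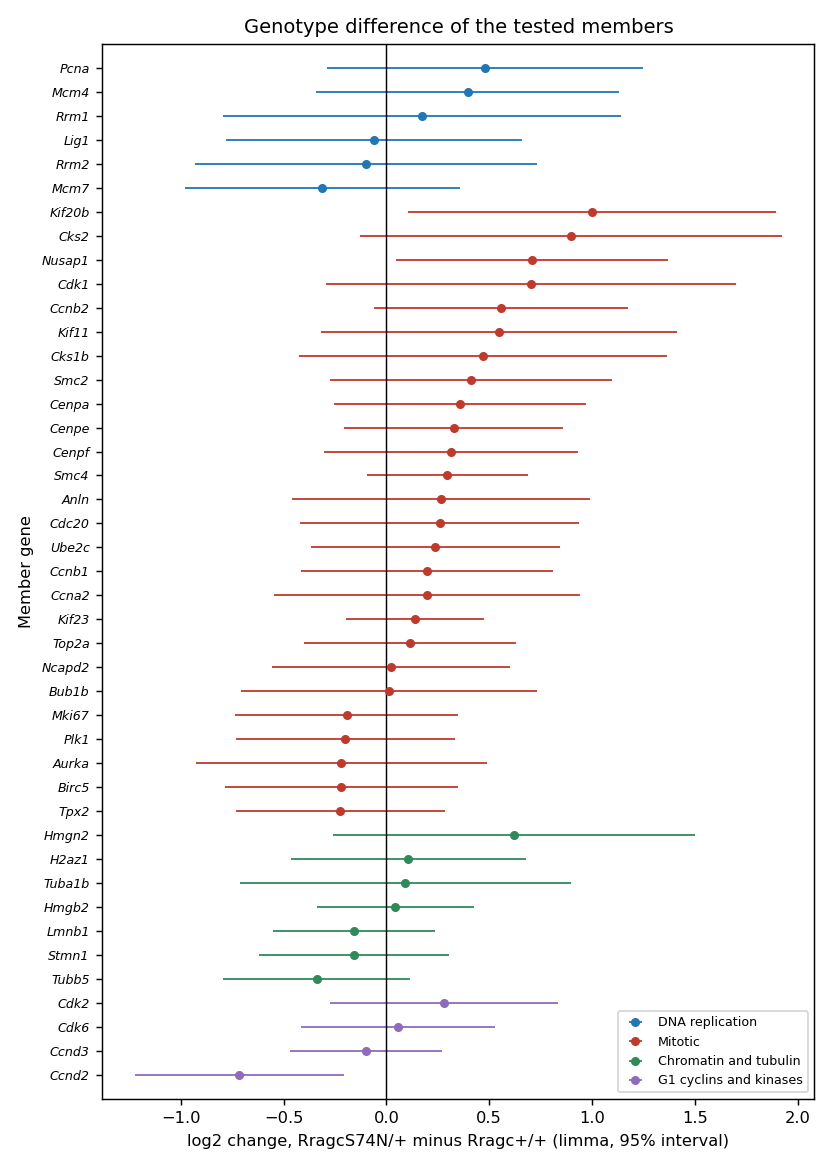
Log2 change of the 43 tested members for RragcS74N/+ minus Rragc+/+ (horizontal axis, limma estimate and 95% interval), ordered within each role. Intervals of Kif20b and Nusap1 lie above 0 and that of Ccnd2 below 0, and all others cross 0.

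Kif20b, a mitotic kinesin, was the member with the largest positive change. It stood at 5.27, 12.9, 5.62, 19.3 and 26.1 in Rragc+/+ and at 17.2, 25.4, 25.6 and 30.3 in RragcS74N/+. The low values were in Rragc+/+ replicates 1 and 3, and the groups overlapped. Its log2 change was 1.00 (0.11 to 1.89), with an unadjusted p of 0.0308 and an adjusted p of 0.713 in limma. Nusap1, which bundles spindle microtubules, stood at 40.2, 30.4, 30.9, 43.4 and 95.2 against 50.4, 72.2, 76.1 and 96.1. Nusap1 overlapped between the groups, with Rragc+/+ replicate 5 inside the RragcS74N/+ range. Its log2 change was 0.71 (0.05 to 1.37), with an adjusted p of 0.713 in limma.

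Among the G1 genes, Ccnd2, cyclin D2, was the member whose groups did not overlap. It stood at 70.5, 130, 69.4, 59.5 and 62.2 in Rragc+/+ and 50.4, 39.6, 38.4 and 54.3 in RragcS74N/+. The highest value was in Rragc+/+ replicate 2, the library that stood apart. Its log2 change was -0.72 (SE 0.24, 95% interval -1.22 to -0.21), with an adjusted p of 0.713 in limma, and -0.52 without that library. Ccnd3, the D-type cyclin with the most reads here, stood at 1475, 1344, 1268, 1518 and 926 against 1124, 1229, 1335 and 1129, with a log2 change of -0.10 (-0.47 to 0.27). Cdk6, a kinase partner of both, stood at 33.6, 32.7, 28.1, 42.6 and 47.1 against 37.1, 28.5, 48.2 and 39.7, a log2 change of 0.06 (-0.41 to 0.53). Cdk2, the kinase of S phase entry, stood at 31.0, 19.9, 26.2, 17.7 and 42.1 against 30.5, 26.4, 33.1 and 38.7, a log2 change of 0.28 (-0.28 to 0.83), which was 0.18 without Rragc+/+ replicate 2, 0.14 without Rragc+/+ replicate 4 and 0.45 without Rragc+/+ replicate 5. Cdk2 and Cdk6 were thus high in Rragc+/+ replicate 5, where Ccnd3 was lowest.

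Chromatin and tubulin genes carried the most reads. H2az1, a histone variant, stood at 2109, 1722, 1535, 1929 and 3437 in Rragc+/+ and 1443, 2194, 2169 and 3518 in RragcS74N/+, a log2 change of 0.11 (-0.46 to 0.68). It followed the mitotic sum at its upper end. Hmgb2, a chromatin protein high in dividing cells, varied less, at 924, 792, 979, 855 and 1044 against 709, 1212, 885 and 1039, a log2 change of 0.04 (-0.34 to 0.42). Lmnb1, lamin B1, ran against the others, at 360, 481, 478, 461 and 323 against 439, 422, 305 and 341, with its lower values in the libraries of high mitotic sum and a log2 change of -0.16 (-0.55 to 0.24). Hmgn2, which binds nucleosomes, stood at 524, 109, 250, 290 and 481 against 256, 423, 456 and 785, a log2 change of 0.62 (-0.26 to 1.50), which was 0.27 without Rragc+/+ replicate 2 and 0.35 without RragcS74N/+ replicate 4. Tubb5, a beta tubulin, stood at 83.6, 88.8, 63.7, 82.8 and 107 against 53.7, 52.9, 88.9 and 76.3, a log2 change of -0.34 (-0.79 to 0.12). Tubulin and HMGN genes have near-identical copies, so the split of their reads is uncertain.

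A wider list of 165 cell cycle genes, none of them members, was read in the same way. Of these 108 were listed and 87 tested, 0 passed the adjusted threshold, and 1 was higher and 3 lower at an unadjusted p under 0.05, where 2.01% and 3.81% of all tested genes were. Changes were positive for 57 and negative for 30, with a median of 0.11, and the median was 0.20 over 34 other mitotic genes (27 positive) and -0.05 over 22 other replication genes (10 positive). The smallest p-values with a positive change belonged to Cdc26, a subunit of the anaphase-promoting complex (0.86, interval 0.10 to 1.62), Orc4, of the origin recognition complex (0.46, -0.04 to 0.96, and 0.29 without Rragc+/+ replicate 2), and Rbbp7, a histone chaperone (0.68, -0.07 to 1.42). Those with a negative change belonged to Fzr1, the activator of that complex in G1 (-0.72, -1.29 to -0.15), Tubb4b, a beta tubulin (-0.62, -1.12 to -0.13), and Pttg1, securin (-0.54, -1.01 to -0.07). Fzr1 ran from 44.1 to 108 in Rragc+/+ and from 28.5 to 56.5 in RragcS74N/+, and Pttg1 from 114 to 250 and from 91.5 to 135. Both were highest in Rragc+/+ replicate 2, as was Tubb4b at 236, and lowest among Rragc+/+ in replicate 5, where most mitotic members were at their highest.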

How the data were processed

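Neutrophil RNA was made into stranded 3′-end libraries by oligo-dT priming, with molecular identifiers. According to the labels and the methods text, alignment was to GRCm39 with TopHat2 (version 2.0.10), and gene counts were made with HTSeq (version 0.6.1) from GENCODE gene models. The deposited signal is these read counts after the authors divided each library by a size factor. Whether identifiers were used to collapse reads, and how the 7197 listed genes were chosen, is not given in the sources used here, so counting intervals cover counting error only. Every listed gene was seen in 7 or more libraries and reached 8 reads in 1 of them, so scarce transcripts are under-represented.

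Members and lists were chosen with earlier results of these data known. All values (100%, tolerance 0.01 reads) were whole multiples of 1 read. Genotypes came from the labels, and 0 columns could not be mapped. Over 16 pairs of libraries of a genotype the lowest chi-square per degree of freedom was 5.47, so none was taken as a duplicate. The study describes more RragcS74N/+ mice than libraries analysed here. The labels give no batch.

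Values were tested as log2(value + 1), which understates changes of low genes, for genes of mean at least 10, with limma (version 3.58.1, R 4.3.3), a variance trend, genotype alone and Benjamini-Hochberg adjustment over all tested genes. edgeR (4.0.16) and DESeq2 (1.42.0) on the recovered reads were alternatives, as were other pseudocounts, filters, scaling, weights and leaving out each library. Scripts were tested on simulated data. Sums per role used listed genes with no filter and no test. Since 3′-end reads do not scale with transcript length, no length correction was made. Values per library are given for the 3 most abundant members of each role, the tested member of smallest p in each direction and for Mki67, Top2a, Pcna, Cdk1 and Ccnb1. Of the wider list the 3 of smallest p in each direction are named. Nusap1, Kif23 and members named beside them for contrast were chosen after their values were seen, as were the precursor sum without Camp and the marker genes named beside the sums. Promoters came from RefSeq (GRCm38.p6), and GC content from GRCm38 transcripts (last 500 bases, median over transcripts), matched by gene and used for names and sequence only.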

Additional observations from a re-analysis of the deposited data

Results flagged for a closer look

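Over the 50 listed members and the 4 sums, 108 groups of 4 or 5 libraries were examined for a library lying apart within its genotype. Chance would mark about 5.4 if the values were normally distributed, which was not tested, and 11 were marked. All 11 lay at the high end of their genotype. Of these 9 fell in Rragc+/+ replicate 5, and since the genes share that library they are not separate events. There the gap to the next library, as a share of the range of its genotype, was 0.8766 for the replication sum and 0.7357 for the mitotic sum. Among single genes it was 0.7558 for Pcna (48.1 against 24.1), 0.8114 for Ccna2, cyclin A2 (53.1 against 23.7), 0.7992 for Nusap1 (95.2 against 43.4), 0.8655 for Aurka, the Aurora A kinase (24.1 against 10.5), 0.7268 for Kif11, the spindle motor Eg5 (32.1 against 12.9), 0.716 for Smc2, a condensin subunit (121 against 58.6), and 0.8053 for Anln, anillin of the cleavage furrow (31.1 against 13.2). In RragcS74N/+ replicate 4 the gap was 0.8324 for Pcna (70.0 against 30.5), and in Rragc+/+ replicate 2 it was 0.8436 for Ccnd2 (130 against 70.5). No cause was tested for any of these libraries.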

How the results depend on the processing

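No paired analysis was made, since the labels link no library of 1 genotype to a library of the other. Replicate numbers are not given in the labels and serve here only to name the libraries. The count of 0 members called held under all 17 alternatives. The count of 3 members at an unadjusted p under 0.05 became 8 with array quality weights, 1 with edgeR and 1 with DESeq2, and ran from 1 to 10 over the 9 fits that each left out a library (10 without Rragc+/+ replicate 5, 5 without RragcS74N/+ replicate 1, 1 without Rragc+/+ replicate 3 or RragcS74N/+ replicate 2, 3 or 4). For all genes the count of 388 became 191 with genes of mean at least 50, where fewer were tested, and 769 with array quality weights, and ran from 201 without Rragc+/+ replicate 2 to 914 without Rragc+/+ replicate 5 (643 and 224 without Rragc+/+ replicates 1 and 3, 255 and 222 without RragcS74N/+ replicates 2 and 4). For the wider list the count of 4 became 15 with array quality weights and ran from 2 without Rragc+/+ replicate 2 to 14 without Rragc+/+ replicate 5. What moved these counts was not tested, beyond the fewer libraries or genes in a fit. The differences of the replication, mitotic and ratio values moved by less than the SD between libraries under each of their 13 alternatives, from -0.10 to 0.32, from 0.21 to 0.52 and from 0.10 to 0.31 on the log2 scale. Over 20 named genes 328 values kept their direction and their side of the threshold and 3 reversed. Lig1, Smc4, Cdk6, Ccnd3, H2az1, Hmgb2, Lmnb1 and the erythroid markers were not among the 20. Whether their changes reverse is therefore not covered by that count. With a library left out Top2a ran from -0.0232 (without Rragc+/+ replicate 3) to 0.3015, with -0.0068 without RragcS74N/+ replicate 3, and Ccnb1 from -0.0214 (without Rragc+/+ replicate 3) to 0.3887. Depth limits the replication genes most, since 7 of 13 lay under a mean of 10.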
